A study of Mus musculus with 3 samples.

Results

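The 9 genes Neurog2, Neurod1, Hes6, Sox4, Sox11, Gadd45g, Btg2, Otx2 and Crx were described across single retinal cells in which the Hippo effector YAP had been made hyperactive. They were named as a set of proneural and neurogenic factors, with earlier results of these data known. All 9 were among the 18478 genes of the count table. The cells came from the retinas of adult mice of genotype Yap5SA+/tg, ROSA26R-tdTomato+/tg and Glast-CreERT+/tg that had been given tamoxifen and then N-methyl-D-aspartate (NMDA), an excitotoxin that kills inner retinal neurons. Yap5SA is a form of YAP that escapes inactivation by the Hippo kinases, Glast-CreERT is a recombinase switched on by tamoxifen in cells with an active Glast promoter (Müller glia and also astrocytes), and tdTomato is the red reporter that recombination turns on. The red cells were collected by flow sorting 2 days later and sequenced from their 3′ ends with the 10X Chromium system in 3 runs. All 3 runs carry the same transgenes, tamoxifen and injury, with no control group, so cells of one class were compared with cells of another class of the same run. The p-values weigh the class difference within a run against its spread over the 3 runs. Whether the runs came from separate mice is not stated in the labels, so that spread may be technical.

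In the developing retina and brain, proneural basic helix-loop-helix factors such as Neurog2 and Neurod1 commit progenitors to a neuronal fate, and Notch signalling through Hes1 and Hes5 holds them back. Hes6 counters Hes1, the SoxC factors Sox4 and Sox11 act after the proneural factors in young neurons, and Gadd45g and Btg2 are growth arrest genes that are switched on in cells about to leave the cycle. Otx2 and Crx are homeobox factors that set and maintain photoreceptor fate, and with Neurod1 they stay on in adult photoreceptors. Btg2 and Gadd45g also respond to stress and to growth factors in many cell types.

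Of 24695 deposited cells, 24672 were kept, with 500 genes or more and no more than 20% of their UMIs from mitochondria (a UMI, unique molecular identifier, stands for 1 captured transcript). Runs 1, 2 and 3 held 7668, 8799 and 8205 of them, with median totals of 9665, 11207 and 9418 UMIs per cell. Between 83 and 108 barcodes were shared by each pair of runs. All 17 listed Müller glia markers were detected, at a summed 29708, 25717 and 24814 CPM (counts per 1000000 UMIs of the class and run), and Rlbp1, a visual cycle gene of Müller glia, stood at 1154, 979 and 1020 CPM. Rod transcripts were present as well, at a summed 2137, 1905 and 2013 CPM over 15 markers. Run 1 stood apart in Ttr, the transthyretin gene, at 12.5 CPM against 4.07 and 3.002, and each test below was repeated without it.

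Neurog2 (chr3:127633135-127635631, mm10) was rare: 2532 UMIs lay in 1834 cells (7.43%), and 1459 of these cells held a single UMI. Its level was 11.2 CPM in run 1, 5.84 in run 2 and 7.79 in run 3. Run 1 was the highest, and the mean was 8.27 ± 2.69 CPM (SD, n = 3). A few cells held many Neurog2 transcripts, with 37 cells at 5 UMIs or more and a highest count of 19. Cells with strong microglia marker expression, which should lack the gene, served as a background for droplet RNA. When every cell was thinned at random to 3500 UMIs, 2.96% of all cells (the mean of the 3 runs' shares, as in all shares by class) and 0 of 67 of these microglia-marker cells held a Neurog2 UMI, which allows a share of up to 4.48% in the latter. That limit lies above the share in all cells, so this background cannot show at this depth that Neurog2 was absent there. Before thinning, 2.71% of the microglia-marker cells, whose median total was 15279 UMIs, held one.

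Neurod1 (chr2:79452521-79456751), which drives photoreceptor and amacrine differentiation, stood at 21.7, 25.7 and 22.7 CPM and was found in 20.1% of cells. Hes6 (chr1:91411483-91414038) stood at 23.2, 19.8 and 21.5 CPM. Neither separated the runs by more than a few CPM. The SoxC genes were unlike each other in spread over cells: Sox4 (chr13:28948919-28953713) was found in 48.0% of cells at 102, 112 and 122 CPM, with 675 cells at 10 UMIs or more. Sox11 (chr12:27334264-27342574) was found in 4.66% of cells at 4.79, 4.57 and 5.52 CPM, with no cell above 9 UMIs.

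The growth arrest genes were widespread and differed between runs. Gadd45g (chr13:51846678-51848468) stood at 374, 499.5 and 733 CPM and reached 187 UMIs in a cell, and Btg2 (chr1:134075170-134079120) stood at 590, 738 and 1085 CPM in 90.2% of cells. Both were lowest in run 1 and highest in run 3. The photoreceptor factors were steady between runs: Crx (chr7:15865947-15879968) stood at 12.8, 11.5 and 12.8 CPM in 12.7% of cells. Otx2 (chr14:48657677-48673819) stood at 2.80, 2.52 and 3.002 CPM in 3.26% of cells, with at most 4 UMIs in a cell.

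The first comparison set cells rich in Igfbp2, which encodes a secreted binding protein for insulin-like growth factors, against cells with little of it. It asked how the neurogenic genes are distributed over the Igfbp2-positive cells of these retinas. Igfbp2-high cells had at least 5 Igfbp2 UMIs per 10000 UMIs (6520 cells) and Igfbp2-low cells had under 1 (15054 cells), with 3098 cells between. Neurog2 was scarce in Igfbp2-high cells, at 11.7-fold lower levels than in Igfbp2-low cells, and Btg2 was 4.64-fold lower. Hes6, Otx2, Crx, Neurod1 and Sox4 were also lower in CPM, while Sox11 was 2.69-fold and Gadd45g 1.37-fold higher. These were 7 lower and 2 higher of 9 members past an edgeR adjusted p of 0.05, beside 81.1% of the 14708 genes tested (39.6% higher and 41.5% lower), so a call alone sets no member apart from other genes.

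Neurog2 stood at 1.61, 0.691 and 1.30 CPM in the Igfbp2-high cells of runs 1, 2 and 3, and at 19.98, 10.2 and 13.0 CPM in the Igfbp2-low cells. The classes were far apart in every run, with a log2 change of -3.54 ± 0.11 (SE, 3 run pairs; edgeR adjusted p = 9.32e-08). Over finer classes the level was 14.4 ± 5.29 CPM in cells without an Igfbp2 UMI, 14.4 ± 3.76 in cells above 0 and under 1 per 10000, 9.83 ± 3.15 in cells at 1 to under 5 per 10000, 1.84 ± 1.05 at 5 to under 20, 0.964 ± 0.262 at 20 to under 50, and 0.519 ± 0.361 at 50 or more (SD, n = 3). Thinned to 3500 UMIs, 0.493% of Igfbp2-high and 3.95% of Igfbp2-low cells held a Neurog2 UMI, so the share of cells with the transcript differed as well as the CPM. Unthinned, the means of the runs' shares were 1.97% and 9.93%, at median totals of 19952 and 9275.5 UMIs. Of the 37 cells with 5 or more Neurog2 UMIs, 83.8% were Igfbp2-low and 1 was Igfbp2-high.

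Btg2 stood at 200, 239 and 322 CPM in Igfbp2-high and at 907, 1123 and 1685 CPM in Igfbp2-low cells, a log2 change of -2.21 ± 0.07 (SE; edgeR adjusted p = 8.33e-08). The highest Igfbp2-high run lay below the lowest Igfbp2-low run. Hes6 showed the same order, at 11.5, 11.2 and 12.1 against 33.3, 26.8 and 29.6 CPM (log2 change -1.31 ± 0.06, edgeR adjusted p = 6.05e-07). Sox4 stood at 63.0, 72.4 and 81.1 against 133, 146 and 153 CPM and changed by -0.95 ± 0.05 (edgeR adjusted p = 7.27e-07). Sox11 went the other way, at 6.69, 7.39 and 8.16 CPM in Igfbp2-high against 3.08, 2.29 and 3.29 CPM in Igfbp2-low cells, a log2 change of 1.43 ± 0.12 (edgeR adjusted p = 1.39e-05). The SoxC pair therefore changed in opposite directions here. Gadd45g was higher within each run, at 458, 569 and 812 against 305, 450 and 675 CPM (log2 change 0.45 ± 0.08, edgeR adjusted p = 0.00117), although its classes overlapped over the runs.

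**Figure D1:**
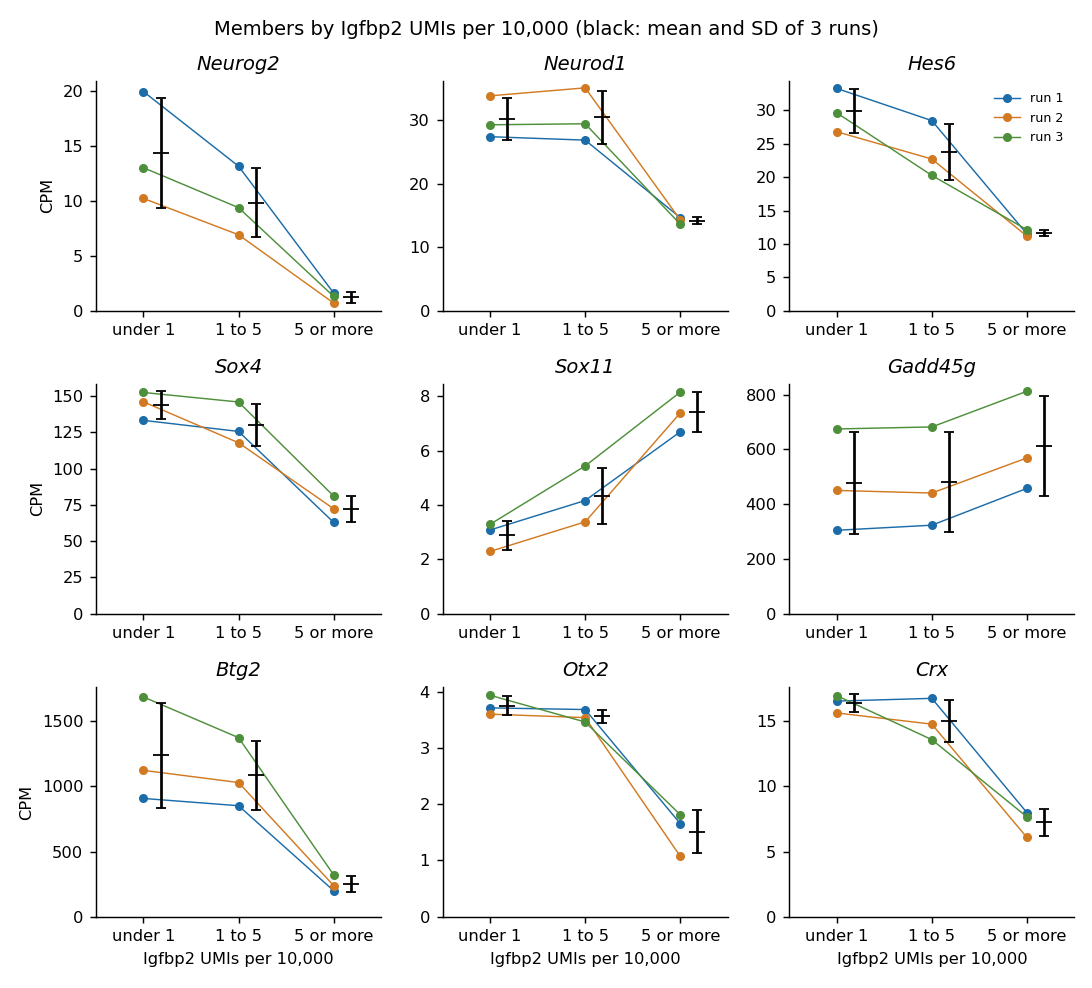
Level of each member (CPM, vertical axis from 0) in cells with under 1, 1 to 5, and 5 or more Igfbp2 UMIs per 10000 (horizontal axis). Coloured points joined by lines are the 3 runs, black bars the mean and SD. Neurog2 falls to 1.61 CPM or less and Btg2 to 322 CPM or less in the last class, Sox11 rises to 6.69 CPM or more, and the runs keep their order in Gadd45g.

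The Igfbp2-high cells held more RNA: their UMI total per cell was 2.05, 2.02 and 2.20 times that of Igfbp2-low cells. Counted as UMIs per cell, Neurog2 was at 0.165, 0.136 and 0.219 times and Btg2 at 0.452, 0.430 and 0.420 times the Igfbp2-low number, so both were also scarcer per cell in each run. Hes6 was at 0.708, 0.841 and 0.898 times. Sox4 (0.969, 1.00 and 1.17 times), Neurod1 (1.10, 0.853 and 1.02 times), Crx (0.990, 0.785 and 0.992 times) and Otx2 (0.915, 0.603 and 1.01 times) were close to even per cell in most runs, so their lower CPM went with the larger totals. Sox11 and Gadd45g were 4.46, 6.51 and 5.44 times and 3.08, 2.55 and 2.64 times as frequent per cell. No test was made on UMIs per cell.

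Otx2, Crx and Neurod1 changed by -1.28 ± 0.17, -1.13 ± 0.09 and -1.03 ± 0.08 on the log2 scale (SE; edgeR adjusted p = 1.71e-04, 7.22e-06 and 1.10e-05). Rod transcripts moved with them: the 15 listed markers summed to 1415, 1249 and 1478 CPM in Igfbp2-high and 2680, 2378 and 2423 CPM in Igfbp2-low cells. Otx2 is also a gene of the retinal pigment epithelium, and all 4 tested markers listed for that tissue fell (median log2 change -3.14). Of these, Rgr is also in the Müller glia list. The epithelium list summed to only 14.8 ± 9.23 CPM in Igfbp2-low cells (SD, n = 3), and in run 1 Ttr was 21.0 of 25.5 CPM. The part of these markers in the result was not tested. In cells without a UMI of Gngt1 or Pde6h the 3 changes were -1.38, -1.18 and -1.14 and all passed. Markers of other cell types also moved with the Igfbp2 classes: the Müller glia list fell in 15 of 17 cases (13818 against 37096 CPM summed), the microglia list in 9 of 10 (10.3 against 148 CPM) and the astrocyte list fell in 4 and rose in 3 of 7 (347 against 1657 CPM). The part of these lists in the members' changes was not tested. The Igfbp2-high cells were also rich in division transcripts, with all 34 tested cell cycle genes higher and a median log2 change of 4.98, against -0.03 over all genes tested. Among cells with under 3 cell cycle UMIs per 10000, Neurog2 changed by -2.87, Btg2 by -1.45, Sox4 by -0.53, Hes6 by -0.48, Sox11 by 0.91 and Gadd45g by 0.91, all past the threshold, and Otx2 (-0.58) did not pass. Among the cells of the authors' log table, Neurod1 (-0.20), Otx2 (-0.30) and Crx (0.09) did not pass, while Neurog2 changed by -4.04.

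The 250 bases before the start of Btg2 are shown because Btg2 had the second largest change and because its levels followed immediate early genes (below). On the minus strand of chr1:134079156-134079405 (RefSeq, GRCm38.p6, 5′ to 3′) they hold 1 full cyclic AMP response element, TGACGTCA, in capitals, at -166 counted from the start. The element occurs, on either strand, in 1.55% of 32851 promoter windows of that length.
Btg2: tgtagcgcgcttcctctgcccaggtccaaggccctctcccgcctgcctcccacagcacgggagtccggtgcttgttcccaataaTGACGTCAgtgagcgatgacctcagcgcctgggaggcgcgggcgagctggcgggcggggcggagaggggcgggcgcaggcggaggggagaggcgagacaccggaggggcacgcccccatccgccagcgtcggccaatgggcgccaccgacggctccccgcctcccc

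Of other genes of the pathway, from a fixed list, 15 fell and 6 rose of 25 tested (40 listed, 33 in the table), with a median log2 change of -0.72, beside 41.5% lower and 39.6% higher of all genes tested. The inhibitor of differentiation gene Id3 fell by 2.26 (SE 0.08; edgeR adjusted p = 1.48e-07), from 848 to 172 CPM. The growth arrest gene Btg1, a relative of Btg2, changed by -1.23 ± 0.06, and the Gadd45g relatives split, with Gadd45b at 0.54 ± 0.12 and Gadd45a at -0.50 ± 0.06. Of 15 Notch pathway genes tested, 12 fell and 1 rose. Hes5, a Notch effector, stood at 6.10 against 78.4 CPM (log2 change -3.58 ± 0.09), Hes1 changed by -1.71 ± 0.07 and Notch1 by -0.92 ± 0.05, and Notch2 rose by 0.49 ± 0.05. Immediate early genes fell in 17 of 20 cases and rose in 2, Junb by -2.27 ± 0.06 and Ier2 by -2.17 ± 0.06 (SE).

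The second comparison was a check for RNA from photoreceptors. It set 1822 cells with at least 5 UMIs per 10000 of Gngt1, the rod transducin gamma subunit, or of Pde6h, the inhibitory subunit of the cone phosphodiesterase, against the other 22850. Crx, Neurod1 and Otx2 were 6.23-fold, 5.98-fold and 5.22-fold higher in those cells, and Btg2 was 1.73-fold higher. Hes6 and Gadd45g were slightly higher, Neurog2 and Sox4 slightly lower, and Sox11 did not pass. In all 6 members were higher and 2 lower of 9 past an edgeR adjusted p of 0.05, beside 48.3% of the 14654 genes tested (22.9% higher and 25.4% lower). So Neurog2 differed from the photoreceptor factors in its direction. These cells held fewer UMIs, at 0.716, 0.688 and 0.733 times the total of other cells. Counted as UMIs per cell, Gadd45g was at 0.794, 0.768 and 0.949 times, below even in each run, and Hes6 at 1.04, 1.004 and 0.904 times, so the higher calls of these genes hold for their share of RNA and not per cell.

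Neurod1 stood at 122, 108 and 107 CPM in the photoreceptor-RNA cells and at 15.4, 22.1 and 17.1 CPM in the others (log2 change 2.58 ± 0.10, SE; edgeR adjusted p = 3.63e-10). Crx stood at 72.4, 57.8 and 54.9 against 9.04, 9.50 and 9.99 CPM (2.64 ± 0.10, edgeR adjusted p = 2.01e-10). Otx2 stood at 16.6, 9.63 and 10.1 against 1.93, 2.22 and 2.53 CPM (2.38 ± 0.21, edgeR adjusted p = 5.01e-07). For these photoreceptor genes every run of the one class lay above every run of the other. The 371 cells selected by Pde6h alone carried more of them, with Neurod1 at 222 ± 39.0, Crx at 102 ± 24.0 and Otx2 at 22.6 ± 11.3 CPM (SD, n = 3). The rod list summed to 8285 ± 1954 against 1654 ± 41.9 CPM and the cone list to 1011 ± 110 against 36.7 ± 8.23 CPM (SD, n = 3). These sums include Gngt1 and Pde6h, which define the classes, so part of the difference was fixed by the selection. Apart from them, all 14 tested rod and all 9 tested cone markers were higher, with median log2 changes of 2.43 and 4.77. The Müller glia markers summed to 33205 ± 3508 and 26389 ± 2552 CPM and the microglia markers to 4.97 and 80.9 CPM. The part of these lists in the members' changes was not tested.

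The levels of the photoreceptor factors followed the photoreceptor RNA of a cell over its whole range. From cells without a Gngt1 or Pde6h UMI (11880 cells) to cells at 20 or more per 10000 (226 cells), Crx went from 3.70 ± 0.723 to 139 ± 19.3 CPM. Neurod1 went from 7.95 ± 2.89 to 287 ± 20.8 CPM and Otx2 from 1.00 ± 0.165 to 27.3 ± 10.2 CPM (SD, n = 3). Neurog2 had no such course, at 9.32 ± 4.06 CPM in the first class and 5.34 ± 2.09 in the last. Photoreceptor-RNA cells were 7.38% of all cells and 5.34% of the 1834 cells with a Neurog2 UMI. They were 0.694% of the 144 cells with 3 or more Neurog2 UMIs. They were 0% of the 37 cells with 5 or more Neurog2 UMIs, a number too small to tell from the share in all cells. For comparison, they were 57.6% of the 125 cells with 3 or more Crx UMIs and 63.8% of the 127 cells with 5 or more Neurod1 UMIs. Sox4 stood at 115 ± 9.77 and 84.7 ± 30.0 CPM and Sox11 at 4.73 ± 0.328 and 2.42 ± 0.710 CPM in the first and last class.

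**Figure D2:**
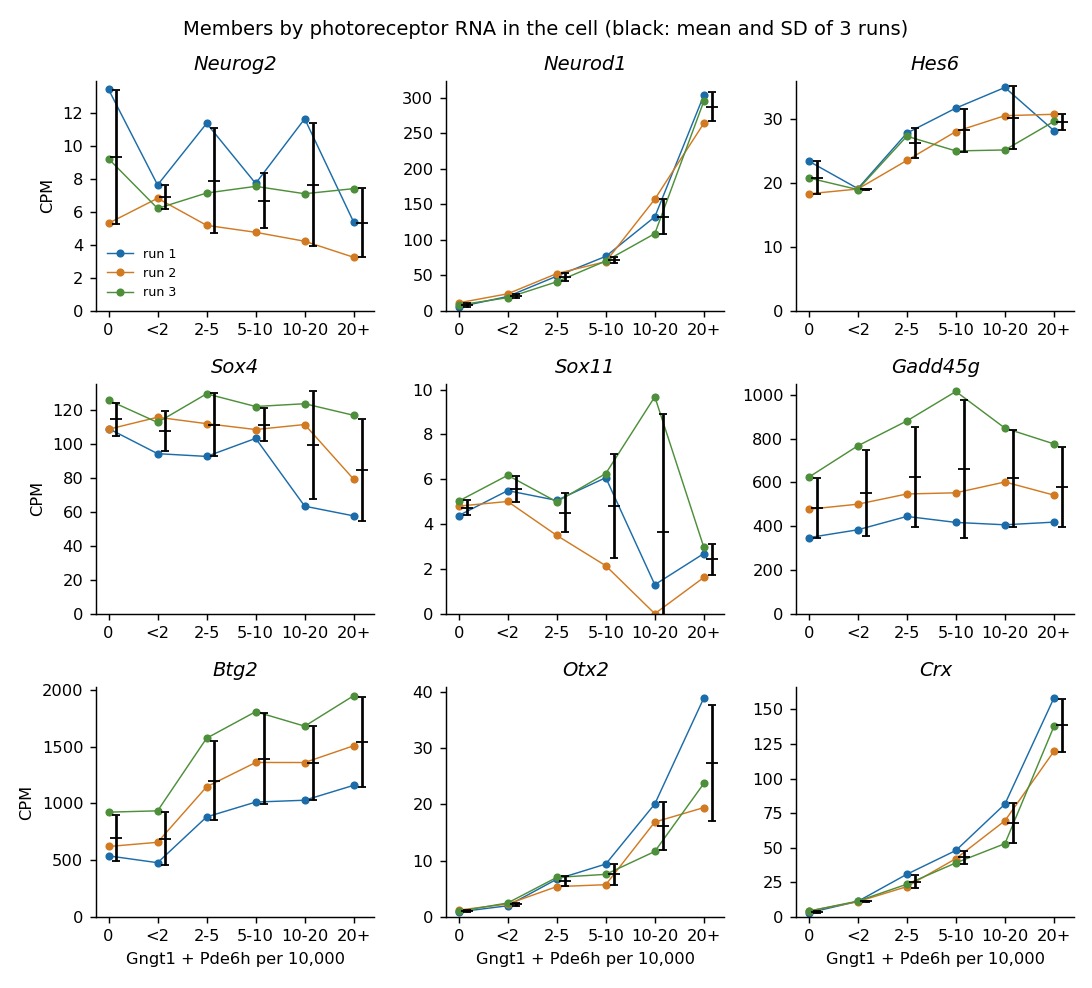
Level of each member (CPM, vertical axis from 0) by the summed Gngt1 and Pde6h UMIs per 10000 of the cell (horizontal axis, 6 classes). Coloured points joined by lines are the 3 runs, black bars the mean and SD. Crx, Neurod1 and Otx2 climb to 139, 287 and 27.3 CPM on average, while Neurog2 and Sox4 do not climb.

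The sequences before the starts of Crx and Otx2 are shown because these genes rose together and because OTX and CRX proteins bind TAATCC. The 250 bases before Crx (minus strand of chr7:15879956-15880205) hold 2 matches, read here on the other strand as GGATTA, at -94 and -21. Of 4 annotated Otx2 starts, 1 has a match, at -211 (minus strand of chr14:48665110-48665359). TAATCC on either strand occurs in 6.25% of promoter windows. No match lies in the window of Neurod1. Sequences are from RefSeq (GRCm38.p6), 5′ to 3′, with matches in capitals.
Crx: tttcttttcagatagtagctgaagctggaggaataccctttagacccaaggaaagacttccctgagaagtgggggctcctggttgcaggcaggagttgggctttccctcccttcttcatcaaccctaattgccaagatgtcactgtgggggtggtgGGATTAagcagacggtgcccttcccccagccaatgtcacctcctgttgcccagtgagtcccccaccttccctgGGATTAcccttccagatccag
Otx2: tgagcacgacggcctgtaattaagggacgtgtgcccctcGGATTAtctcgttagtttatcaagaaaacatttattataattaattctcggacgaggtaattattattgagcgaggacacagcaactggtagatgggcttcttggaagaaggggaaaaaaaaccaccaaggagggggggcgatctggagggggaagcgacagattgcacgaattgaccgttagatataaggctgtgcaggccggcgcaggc

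Btg2 changed by 0.79 ± 0.03 (SE; edgeR adjusted p = 8.13e-10), from 562, 713 and 1041 CPM in the other cells to 1043, 1319.9 and 1746 CPM in photoreceptor-RNA cells. The classes of each run were well apart, although the runs overlapped. Hes6 changed by 0.41 ± 0.08, Gadd45g by 0.18 ± 0.05, Sox4 by -0.19 ± 0.06 and Neurog2 by -0.36 ± 0.14 (edgeR adjusted p = 0.00104, 0.00621, 0.0188 and 0.0431), while Sox11, at -0.33 ± 0.24 (edgeR adjusted p = 0.267), did not pass. Cell cycle transcripts were lower in photoreceptor-RNA cells (740 against 2593 CPM summed) and immediate early transcripts higher (12024 against 7724 CPM). Within Igfbp2-low cells the changes were -0.996 for Neurog2, -0.50 for Sox4, 0.30 for Btg2 and 0.32 for Gadd45g, all past the threshold, and Hes6 (0.02) did not pass. Without run 1 Neurog2 (-0.29) and Sox4 (-0.13) did not pass, nor did they without run 2 (-0.35 and -0.18), and without run 3 Gadd45g (0.09) did not pass while Sox11 (-0.70) did. Among the cells of the authors' log table Neurog2 (-0.03), Hes6 (0.06) and Sox4 (0.19) did not pass.

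Of 25 pathway genes tested in this comparison, 14 rose and 3 fell, beside 22.9% higher and 25.4% lower of all genes tested, with a median log2 change of 0.35 against 0.01. Id3 rose by 0.69 ± 0.04 and Id1 by 0.26 ± 0.06 (SE). Photoreceptor fate factors rose in 8 of 9 cases, with a median of 1.76: the rod determinant Nrl by 2.48 ± 0.14, its target Nr2e3 by 2.43 ± 0.12 and Mef2d by 1.39 ± 0.10. Notch pathway genes rose in 10 of 14 cases (Hes5 0.69 ± 0.11, Hes1 0.44 ± 0.08), and immediate early genes in 17 of 20 (Junb 0.83 ± 0.03, Fos 0.52 ± 0.03). In cells low in cell cycle genes Id1 (-0.16) and in Igfbp2-low cells Id1 (-0.20) fell instead.

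The third comparison set 5675 cells with at least 3 raw UMIs summed over Hmga2, Cd24a, Clcf1 and Cdsn against 9820 cells with 0. Between these classes lay 9177 cells. Hmga2 is a chromatin protein of immature cells, Cd24a a surface glycoprotein of young neurons, Clcf1 a cytokine and Cdsn an adhesion protein. These genes had been taken from cells in which Neurog2 was known to be high, so Neurog2 is given here as values with no test. Sox11 (1.54-fold) and Sox4 (1.32-fold) were higher in the cells rich in this set. Btg2 was 2.13-fold and Crx 1.91-fold lower, and Otx2, Neurod1, Hes6 and Gadd45g were lower in CPM by smaller amounts. This made 2 higher and 6 lower of 8 members tested with edgeR at an adjusted p of 0.05, beside 49.6% of the 14158 genes tested (24.9% higher and 24.7% lower).

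Neurog2 stood at 13.3, 5.28 and 10.2 CPM in Hmga2-set-high cells and at 9.97, 5.95 and 6.76 CPM in cells at 0, with no common direction in the 3 runs. Split further by Igfbp2, its values were as follows, as a description, since the choice of the set used Neurog2-rich cells. In Igfbp2-low cells Neurog2 stood at 31.8, 10.4 and 20.1 CPM in the Hmga2-set-high class and at 13.8, 9.11 and 8.91 CPM in the class at 0, with the classes of run 2 close together. In Igfbp2-high cells it was 2.02 CPM or less in both classes and every run. Of the 144 cells with 3 or more Neurog2 UMIs, 45.8% were Hmga2-set-high, beside 23.0% of all cells, and 84.7% were Igfbp2-low, beside 61.0% of all cells.

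Sox4 followed the Hmga2 set in both Igfbp2 classes. It stood at 186, 199 and 192 CPM in the Hmga2-set-high and 101, 113 and 135 CPM in the Hmga2-set-0 class of Igfbp2-low cells, and at 69.0, 79.3 and 91.3 against 54.6, 61.7 and 70.6 CPM in Igfbp2-high cells. Over all cells it changed by 0.41 ± 0.07 (SE; edgeR adjusted p = 0.00281). When cells were thinned to 3500 UMIs before counting the set, Sox4 in Igfbp2-low cells went from 127 ± 17.9 CPM at 0 UMIs (10874 cells) through 136 ± 7.73, 176 ± 12.2 and 209 ± 15.6 to 276 ± 29.7 CPM at 5 or more (283 cells; SD, n = 3). Over the same classes Btg2 went from 1434 ± 413 to 408 ± 187 CPM, Gadd45g from 556 ± 228 to 228 ± 87.8 CPM and Crx from 18.8 ± 1.34 to 4.81 ± 3.62 CPM. Sox11 changed by 0.63 ± 0.13 over all cells (edgeR adjusted p = 0.00752), at 5.60, 5.004 and 5.91 against 2.92, 3.66 and 4.27 CPM. Igfbp2-high cells, richer in Sox11, were 2055 of the 5675 Hmga2-set-high cells and 1803 of the 9820 cells at 0. Within Igfbp2-low cells the log2 ratio of Sox11 CPM was 0.90, 0.22 and 0.57 in runs 1, 2 and 3. Within Igfbp2-high cells it was 0.56, 0.27 and -0.01, with no common direction.

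Btg2 changed by -1.09 ± 0.06 (SE; edgeR adjusted p = 1.33e-04), at 357, 462 and 746 against 818, 1063 and 1431 CPM. Crx changed by -0.94 ± 0.08 (edgeR adjusted p = 3.31e-04), at 8.04, 8.63 and 8.94 against 17.7, 15.8 and 16.4 CPM, with no overlap between the classes. Otx2 changed by -0.66 ± 0.18, Neurod1 by -0.60 ± 0.15, Hes6 by -0.43 ± 0.07 and Gadd45g by -0.29 ± 0.07 (edgeR adjusted p = 0.0202, 0.0139, 0.00354 and 0.0115). Rod transcripts moved with the photoreceptor factors, at a summed 1364, 1571 and 1484 against 3015, 2333 and 2464 CPM. Müller glia markers fell in 16 of 17 cases (21150 against 32284 CPM summed) and microglia markers in 10 of 11 (24.0 against 154 CPM), and the part of these lists in the members' changes was not tested. The Hmga2-set-high cells were deeper, at a median of 13996 against 8617.5 UMIs, and had more cell cycle transcripts (2645 against 1905 CPM summed).

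Depth and the choice of cells changed these calls. The UMI total per cell of Hmga2-set-high cells was 1.71, 1.64 and 1.63 times that of cells at 0. The set was counted in raw UMIs, so its limits themselves place deeper cells in the high class. Ratios of UMIs per cell carry this difference in depth. Counted as UMIs per cell, Hes6 (1.12, 1.33 and 1.20 times) and Gadd45g (1.41, 1.47 and 1.15 times) were above even in each run, against their direction in CPM. Neurod1 (0.815, 1.40 and 1.05 times) and Otx2 (0.790, 1.28 and 1.06 times) had no common direction per cell, and Btg2 (0.746, 0.713 and 0.849 times) and Crx (0.777, 0.896 and 0.888 times) were below even in each run. Thinned to 3500 UMIs, 4 of the 8 members passed: Sox4 (0.99), Gadd45g (-0.67), Btg2 (-0.78) and Crx (-0.82). Neurog2, not tested, then stood at 1.55 on the log2 scale. Its thinned levels in runs 1, 2 and 3 were 38.8, 8.78 and 25.4 CPM in the high class and 11.3, 6.13 and 7.56 CPM at 0. The classes of run 2 were close together. Among the cells of the authors' log table only Sox4 (0.48) and Btg2 (-0.58) passed. Without run 3 Neurod1 (-0.60), Gadd45g (-0.19) and Otx2 (-0.69) did not pass, and without run 1 Otx2 (-0.46) did not.

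**Figure D3:**
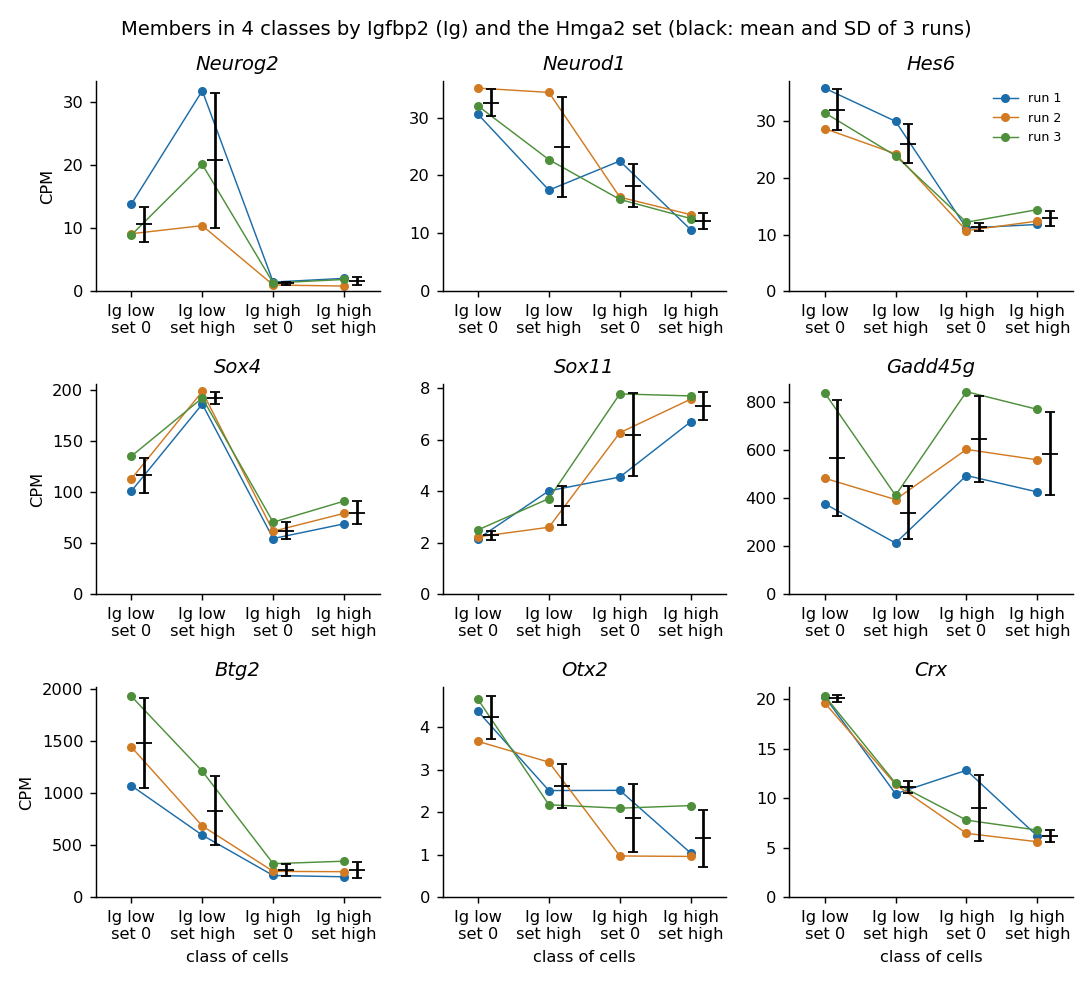
Level of each member (CPM, vertical axis from 0) in 4 classes of cells (horizontal axis) split by Igfbp2 (Ig low: under 1, Ig high: 5 or more UMIs per 10000) and by the summed UMIs of the Hmga2 set (0 or at least 3). Coloured points joined by lines are the 3 runs, black bars the mean and SD. Neurog2 and Sox4 peak in Igfbp2-low cells rich in the set, where Sox4 lies between 186 and 199 CPM, and Btg2 and Crx peak in Igfbp2-low cells without it.

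An interaction term asked whether the Hmga2-set difference was the same in Igfbp2-high and Igfbp2-low cells, over 12 summed profiles of 572 to 2570 cells each. It passed for 3 of 8 members, 2 upward and 1 downward, beside 26.3% of genes tested (11.3% and 15.0%). Btg2 was lower with the set in Igfbp2-low cells (596, 684 and 1209 against 1070.4, 1441 and 1927 CPM) and level in Igfbp2-high cells (197, 245 and 346 against 209, 249 and 322 CPM), an interaction of 0.80 ± 0.12 (SE; edgeR adjusted p = 6.55e-04). Hes6 differed likewise, at 30.0, 24.3 and 23.9 against 35.9, 28.7 and 31.5 CPM in Igfbp2-low and 11.8, 12.4 and 14.4 against 11.1, 10.7 and 12.2 CPM in Igfbp2-high cells (0.42 ± 0.13, edgeR adjusted p = 0.0381). The Sox4 difference was smaller on the log2 scale in Igfbp2-high cells (-0.43 ± 0.09, edgeR adjusted p = 0.00501). The Hes6 call was lost without run 2 (0.44) or run 3 (0.35) and the Sox4 call without run 1 (-0.35) or run 2 (-0.38), and Gadd45g (0.50, edgeR adjusted p = 0.0573) passed without run 2 (0.72).

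Of the pathway genes in the Hmga2-set comparison, 6 were higher and 8 lower of 23 tested, near the 24.9% and 24.7% over all genes tested. Stmn2, a tubulin-binding protein of growing neurites, rose by 0.57 ± 0.09 (edgeR adjusted p = 0.00292), at 86.2 against 57.4 CPM, and Gadd45b rose by 0.28 ± 0.08, while Id3 (-0.82 ± 0.08) and Btg1 (-0.42 ± 0.07) fell. Of 13 Notch pathway genes tested 9 fell and 0 rose, with Hes5 at -1.81 ± 0.10 and Hes1 at -1.08 ± 0.08 (SE). Immediate early genes fell in 16 of 20 cases and rose in 1. Within Igfbp2-high cells several of these turned, with Id3 at 1.01, Btg1 at 0.23, Notch1 at 0.27, Jun at 0.16 and Junb at 0.26, all past the threshold. Photoreceptor fate factors fell in 6 of 8 cases, Nr2e3 by -1.08 ± 0.11 and Nrl by -1.04 ± 0.13.

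**Figure D4:**
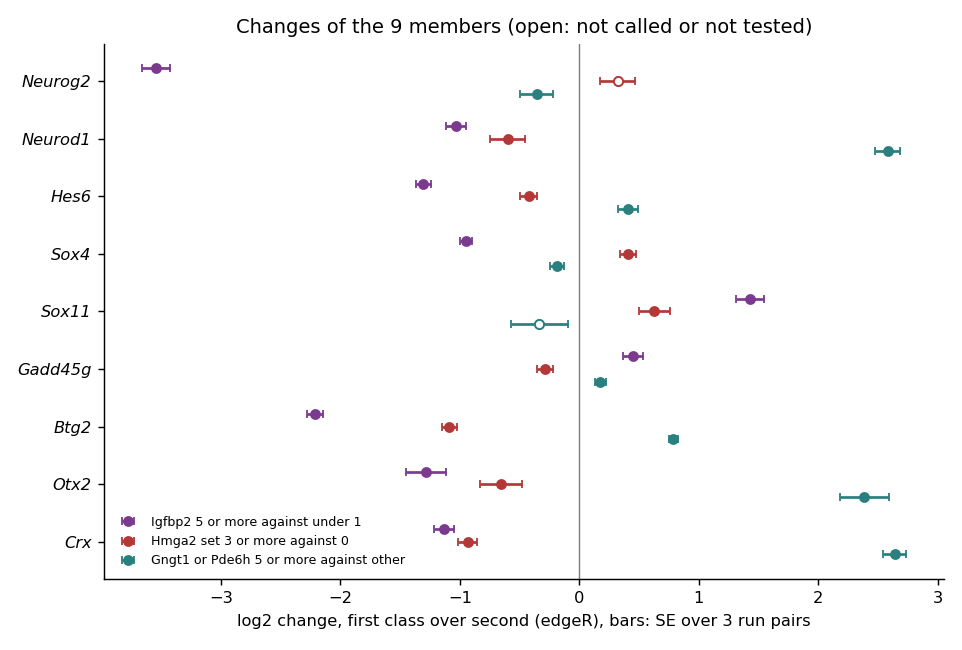
Log2 change of each member (horizontal axis, with SE over 3 run pairs) in the 3 comparisons (colours), from edgeR. Open points were not called or, for Neurog2 with the Hmga2 set, not tested. Neurog2 lies at -3.54 with Igfbp2, and Neurod1, Otx2 and Crx lie between 2.38 and 2.64 with photoreceptor RNA.

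Within single cells thinned to 3500 UMIs, the photoreceptor factors were found together more often than the product of their shares gives. Neurod1 and Otx2 shared 70 cells (2.99 times the product), Otx2 and Crx 39 cells (2.95 times) and Neurod1 and Crx 247 cells (2.71 times). Each ratio was above 2 in every run, also with photoreceptor-RNA cells left out, where they were 3.18, 2.85 and 2.49. Neurog2 and Sox4 shared 228 cells, 1.30 times the product, and 1.43, 1.21 and 1.21 times in runs 1, 2 and 3. Both were lower in Igfbp2-high cells. Within Igfbp2-low cells alone the ratio was 1.20, and 1.30, 1.07 and 1.17 in runs 1, 2 and 3, near even in run 2. Neurog2 and Crx shared 19 cells, 0.58 times the product, and Neurog2 and Sox11 shared 4 (0.43 times), numbers too small to rank. These ratios over cells share the libraries and are given as a description.

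**Figure D5:**
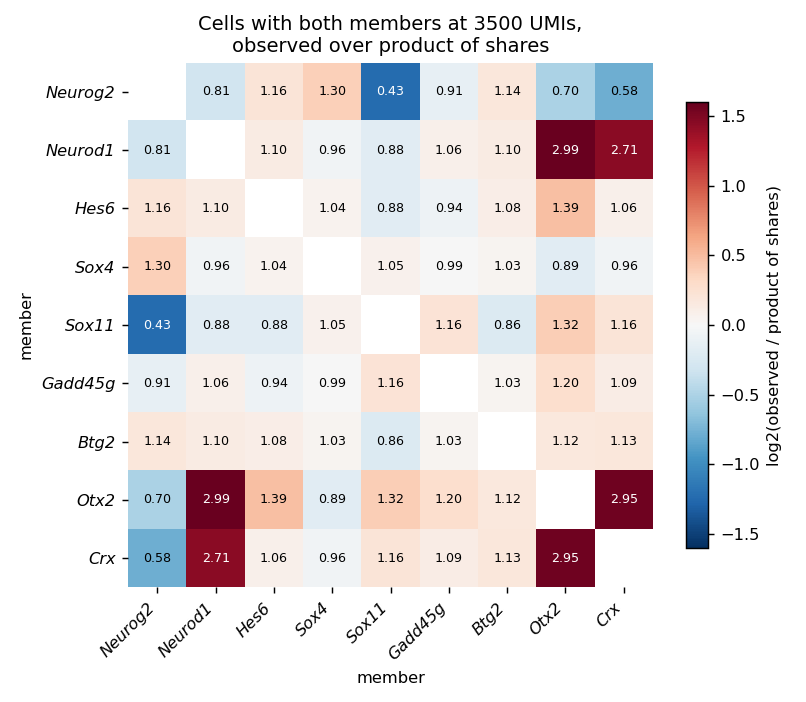
Cells in which both members of a pair had a UMI after thinning to 3500 UMIs, divided by the product of their shares (numbers in the squares; colour on a log2 scale; members on both axes). Over all cells the block of Neurod1, Otx2 and Crx stands at 2.71 to 2.99, and Neurog2 with Sox4 at 1.30.

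The genes most like each member were those at 20 CPM or more whose level, in thinned cells, was highest in cells with the member relative to cells without it, ranked by the lowest of the 3 run ratios. For Neurod1, Otx2 and Crx the first was Pde6h (14.2, 5.84 and 7.97 times for Neurod1, 8.71, 4.72 and 5.98 for Otx2, 10.3, 7.84 and 7.998 for Crx). Gnb3, the cone transducin beta subunit, was among the first 3 for each. For Neurog2 the ratios were small, led by the glycerol-3-phosphate dehydrogenase gene Gpd1 (1.82, 1.78 and 1.96 times), then Chchd10, Tpcn1, Cox7a1 and Uchl1. For Sox4 the first was Hmga2 (1.72, 1.73 and 1.499 times), and Cd24a came after Rgs5 (1.39, 1.48 and 1.32 times).

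Gadd45g went with Igfbp5 (2.51, 4.71 and 3.57 times) and the kinase gene Nuak2 (2.31, 2.15 and 2.13 times), and also with Rgs5, Tagln and Amotl2. Sox11 went with Tagln (3.99, 2.28 and 2.37 times), an actin-binding protein, and with Gas6, Fmod, Tinagl1 and Asf1b. Btg2 went with 1200007C13Rik (5.21, 4.77 and 6.71 times), then with Arc (4.04, 4.99 and 7.31 times), Arl4d, Atf3 and Junb, of which Arc, Atf3 and Junb are immediate early genes. Hes6 went with the apolipoprotein gene Apoc1 (1.43, 1.46 and 1.43 times), Fcgrt, Ctsf, Etnppl and Gpd1.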

How the data were processed

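The count table deposited by the authors holds UMI counts per gene and cell, made from 10X 3′ v2 libraries with Cell Ranger (no version given) on mm10, per the submitters' processing notes. The authors also deposited natural log values (Seurat 2.3.4 in those notes). For all 9 members these equalled ln(1 + 10000 × count / cell total) to within 5e-07 in 13511 cells (54.7%). How those cells were chosen is not given in the sources used here, and results rest on the counts. Positions are from GENCODE M21.

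Of all cells 23 were left out (under 500 genes or over 20% mitochondrial UMIs), and doublets were not removed. The lowest total was 3538 UMIs. Counts were summed per class and run and tested with edgeR 4.0.16 quasi-likelihood (R 4.3.3) with filterByExpr, TMM and the run as a block, since both classes come from the same library. P-values were adjusted by Benjamini-Hochberg over all genes tested, with 0.05 as the threshold. The SE is the change divided by the square root of F. The interaction is the Hmga2-set change in Igfbp2-high cells minus that in Igfbp2-low cells. All 9 members passed the filter in each fit, and class-defining genes were not tested. Intervals and floors cover counting error only. Near the class limits lay 3217 cells at 2 and 1817 at 3 UMIs of the Hmga2 set, 173 and 163 cells within 1 UMI per 10000 below and above the Igfbp2 limit, and 672 and 447 likewise for Gngt1 or Pde6h.

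The members, classes and gene lists were chosen with earlier results of these data known. Named genes were the 9 members, up to 4 called genes per list with the highest mean CPM, and the 5 genes most like each member. Single genes were chosen from these for mention. On simulated data with 200 changed genes 95% of the 2-fold changes were found in the Hmga2-set comparison (14162 genes), 94% in that of Igfbp2 (14709) and 78% in that of photoreceptor RNA (14656). For 1.5-fold changes the shares were 80%, 80% and 57%, and 6.42%, 3.87% and 3.57% of calls were false. The simulation gave every gene the same dispersion and changed far fewer genes than were called in the data. Its shares therefore need not hold for the data or for rare members. Alternatives were other size factors, no filter, DESeq2 1.42.0, no block, each run left out, thinned cells, stricter or other class limits and subsets of cells. Of these, cells without Gngt1 and Pde6h UMIs and subsets by Igfbp2 were added after seeing the data.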

Additional observations from a re-analysis of the deposited data

Results flagged for a closer look

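The Hmga2-set difference itself differed between Igfbp2-high and Igfbp2-low cells for 3 of 8 members, by a test of the interaction (edgeR, Benjamini-Hochberg over all genes). It also passed for 26.3% of the 13717 genes tested, so a call alone sets no member apart from other genes. For Btg2 the interaction was 0.80 on the log2 scale, for Hes6 it was 0.42, and for Sox4 it was -0.43. Within Igfbp2-low cells the log2 difference with the set was -0.83 for Btg2, -0.26 for Hes6 and 0.77 for Sox4, and within Igfbp2-high cells it was 0.002, 0.18 and 0.36. Without the run block none of the 3 passed (Btg2 0.79, Hes6 0.43, Sox4 -0.42). Thinned to 3500 UMIs the values were 1.90, 1.88 and -0.19, and that of Sox4 no longer passed. The class high in both the set and Igfbp2 then held only 70, 56 and 67 cells in runs 1, 2 and 3. The sizes of these values, above all for the sparse Hes6, are therefore uncertain.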

How the results depend on the processing

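In the Hmga2-set comparison 7017 genes and 8 of 8 members passed. The counts were 3270 and 3 without the replicate block, 1982 and 2 in the authors' cells, 1850 and 4 after thinning, 4134 and 5 in cells with 0 UMIs of Gngt1 and Pde6h, 4449 and 5 at Igfbp2 under 1, and 1912 and 3 at Igfbp2 of 5 or more. Leaving out single runs gave 4387 to 7236 genes and 5 to 8 members. The Igfbp2 comparison had 11932 genes, 7913 in cells low in cell cycle genes, and 9 members under each run left out. Without the replicate block Gadd45g (0.41) did not pass there. The photoreceptor-RNA comparison had 7076 genes and 8 members, against 4142 and 4 without the replicate block, 1155 and 5 in the authors' cells, 3236 and 5 after thinning, 3459 genes in cells low in cell cycle genes and 3239 at Igfbp2 under 1. Of the interaction's 3 members 0 passed without the replicate block (edgeR).

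Signs turned as follows. Neurog2, not tested with the Hmga2 set, went from 0.32 to -0.0187 for Hmga2 and Cd24a alone. With the Hmga2 set, in the authors' cells: Neurod1 0.12, Mef2d 0.23. After thinning: Btg1 0.16, Mef2d 0.43, Notch1 0.29. With 0 UMIs of Gngt1 and Pde6h: Mef2d 0.0488. At Igfbp2 of 5 or more: Hes6 0.18, Btg2 0.002, Id3 1.01, Btg1 0.23, Gadd45b -0.0733, Mef2d 0.33, Hes1 0.014, Notch1 0.27, Hes5 0.67, Fos 0.0518, Jun 0.16, Junb 0.26 and Ier2 0.16. With Igfbp2, in the authors' cells: Crx 0.0904, Nrl 0.0475, Nr2e3 0.17. With photoreceptor RNA: Hes6 -0.0477, Sox11 0.29, Id1 -0.16 and Hes1 -0.0041 in cells low in cell cycle genes, Sox4 0.19 and Sox11 0.30 in the authors' cells, Sox11 0.28 and Id1 -0.20 at Igfbp2 under 1, and Gadd45g -0.0185 for Pde6h alone. In the interaction: Sox11 0.62 thinned and 1.30 in cells low in cell cycle genes, Otx2 -0.016 and Crx -0.17 in the latter, and Otx2 between -0.34 and 0.48 with single runs left out. Of the members' values under alternatives, 139 kept their direction and their side of the threshold, 4 lost the call and 1 turned in the Igfbp2 comparison. In the photoreceptor-RNA comparison 123 kept both, 23 lost the call, 1 gained it and 6 turned. In the Hmga2-set comparison 136 counted as unchanged, 30 lost the call and 3 turned. In the interaction 44 counted as unchanged, 9 lost the call, 3 gained it and 5 turned. Neurog2, not tested in these, was judged by the size of its shift alone, and 2 of its values moved in each. The cause of these changes was not tested.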

Other observations

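The 13511 cells of the authors' log table and the other 11161 cells differed in the photoreceptor factors. Crx stood at 6.25 ± 0.769 CPM in the former and 22.5 ± 1.74 CPM in the latter, Neurod1 at 14.1 ± 4.65 and 38.6 ± 0.849, and Otx2 at 1.58 ± 0.348 and 4.74 ± 0.521 (SD, n = 3 runs). Igfbp2 stood at 1739 ± 248 and 591 ± 143 CPM, and the proliferation gene Mki67 at 70.1 ± 14.9 and 27.9 ± 3.65. Neurog2 stood at 7.56 ± 3.17 and 9.51 ± 2.12 and Sox4 at 113 ± 7.06 and 110 ± 15.03 CPM. Btg2 stood at 504 ± 138 and 1315 ± 458 CPM. No test was made, since the choice of those cells may have used these genes.

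Neurog2 itself has no E-box (CANNTG, either strand) in the 250 bases before its start, and neither have Btg2 and Crx. Of all promoter windows 66.2% hold one, so a window without it is common.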
